A study of Mus musculus with 11 samples.

Results

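Inguinal white adipose tissue from mice lacking Raptor in their adipocytes (KO) was compared with tissue from floxed littermates (WT), all of them treated with rosiglitazone, in 6 of the 11 bulk RNA libraries of the study, 3 for each genotype. The libraries were picked by their genotype and treatment labels. KO mice carried floxed Raptor alleles together with a Cre recombinase under the adiponectin promoter, and WT mice carried the floxed alleles alone. All were C57BL6/J mice of 16 weeks that had eaten a high-fat diet containing rosiglitazone, a drug that activates PPARG, at 30 mg per kg per day for 8 weeks. The remaining 5 libraries, 2 KO and 3 WT from mice on that diet without the drug, shared the estimate of spread and gave the diet values set beside some results. The deletion reaches only cells that use the adiponectin promoter, whereas the RNA came from the whole depot with its vessels, progenitors, immune cells and any attached lymph node or muscle. The titles of the WT libraries contradict their treatment labels, since each of the 6 titles states the other treatment. The treatment label was followed, which is also the one that the names of the deposited tables carry, and each direction given here holds under it. Nothing in the labels ties each library to an animal of its own, so a p-value covers the spread between these libraries, which may be technical.

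Raptor is the scaffold that brings substrates to mTORC1, the protein kinase complex that couples nutrients and insulin to protein, lipid and nucleotide synthesis and that holds back autophagy and lysosome formation. PPARG is the nuclear receptor that drives adipocyte differentiation and the genes of fat storage, and rosiglitazone is a high-affinity agonist of it. In white fat both act on the same cell, and the comparison asks which transcripts of the depot differ when the agonist is given without mTORC1 in adipocytes.

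Depth was 17167452, 13035346 and 14328271 estimated reads in KO and 31372870, 40925952 and 18437526 in WT replicates 1, 2 and 3, so the WT libraries were the deeper ones. Levels are given as CPM, a gene's reads scaled to library size with TMM factors, always in the order of replicates 1, 2 and 3. A value with ± in brackets is a log2 fold change, KO minus WT, with its standard error. Genes of cytosolic ribosomal RNA and signal recognition particle RNA took 28.4%, 15.6% and 16.6% of the reads in KO and 12.1%, 9.41% and 9.94% in WT, without overlap. Skeletal muscle markers took 0.0183%, 4.58% and 0.0288% in KO and 0.0251%, 0.897% and 1.82% in WT, so that KO replicate 2 and WT replicates 2 and 3 held muscle RNA. Leaving out the ribosomal RNA genes gave 3973 called genes in place of the 4037 below, and a muscle covariate 2858.

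Rptor, the deleted gene (chromosome 11, 119602905 to 119899576, plus strand, GRCm38), measured 88.3, 82.4 and 91.7 CPM in KO and 119, 126 and 110.5 CPM in WT, lower in each KO library than in each WT library. The means were 87.5 ± 4.73 CPM in KO and 118 ± 7.84 CPM in WT (SD, n = 3 each), which is 0.739 of the WT mean (p = 0.1, exact permutation, two-sided, the smallest that 3 against 3 libraries allow). In edgeR's quasi-likelihood test over all genes the log2 fold change, KO minus WT, was -0.44 ± 0.15 (± SE), with an adjusted p of 0.0749. Reads were counted over the full gene in all cell types of the depot, and deleted exons were not analysed here. With WT treatments taken from the titles the KO mean was 1.07 of the WT mean (exact permutation p = 0.5).

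Of 39 subunits and regulators of the mTOR complexes, 9 fell and 30 did not pass (3 to 14 lower when single libraries were left out), at a median log2 fold change of -0.37. The share of all genes called lower was 9.5%. Deptor, an inhibitor bound by both mTOR complexes, measured 154, 206 and 176 CPM in KO and 1087, 1373 and 1089 CPM in WT, a fall of 6.62-fold (log2 fold change -2.73 ± 0.50, adjusted p = 0.00780). Sesn2, the leucine sensor sestrin 2, went from 44.1, 70.7 and 42.0 CPM in WT to 8.73, 9.64 and 9.71 CPM in KO (-2.48 ± 0.37). The KO libraries lay below the WT libraries for both genes. Eif4ebp1, the translation repressor that mTORC1 phosphorylates, was lower by -1.49 on the log2 scale and Prr5l, a partner of mTORC2, by -1.30. Mtor itself, at 90.7, 131 and 104 CPM in KO and 205, 247 and 181 CPM in WT, had a log2 fold change of -0.96 ± 0.31 and did not pass (adjusted p = 0.0622), although its libraries did not overlap either. The call of Eif4ebp1 was lost without KO replicate 1, 2 or 3 or WT replicate 2 (adjusted p 0.0574 to 0.0820).

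edgeR called 4037 of 26960 genes between the genotypes at an adjusted p under 0.05, which is 15% of those tested, 1476 higher in KO (5.47%) and 2561 lower (9.5%). Among the calls, 323 were at least 4-fold higher and 637 at least 4-fold lower, while the median log2 fold change of all genes was 0.05. Non-overlap of the 3 KO and 3 WT libraries was common, at 12988 genes (48.2%), so it is given below as a description. On the TPM scale, log2(TPM + 1) in limma-trend, the median of all genes moved by -0.35 and the split became 225 higher and 3853 lower (5.52% of calls higher, against 36.6%). With 1 library left out the count was 1645, 2407 and 1500 without KO replicates 1, 2 and 3, and 2105, 1498 and 2240 without WT replicates 1, 2 and 3. Of the 212 called genes named in this text, 130 passed without each of the 11 libraries in turn. For the others the libraries are named beside the result. With the 4 libraries richest in muscle reads left out, which leaves 1 WT library with the drug, the count by edgeR was 0, and 2538 genes had an unadjusted p below 0.05. A gene said to depend on all 6 missed the threshold without any 1 of the 6 rosiglitazone libraries. The plot of fold change against level shows both directions.

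**Figure D1:**
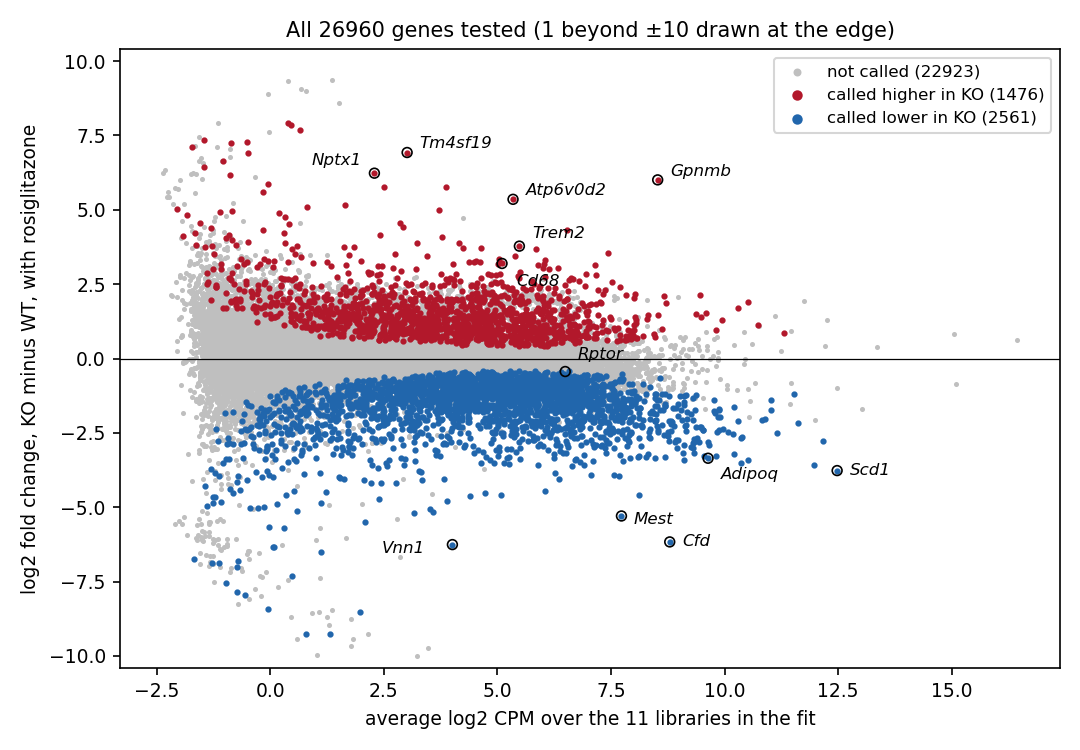
Log2 fold change (KO minus WT, with rosiglitazone) of all 26960 genes tested against their average log2 CPM over the 11 libraries. The 1476 genes called higher are red, the 2561 called lower blue and the rest grey, and named genes are circled, with Gpnmb and Tm4sf19 at the top, Cfd and Scd1 far below 0 and Rptor close to 0.

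Among called genes with an established symbol, an average log2 CPM of at least 1 and no overlap, the 12 lowest fitted log2 values included those of Klf14 and Adam3, which had almost no reads in KO. Klf14, an imprinted transcription factor gene that has been tied to adipocyte size, had 0 reads in the 3 KO libraries and 169 in the 3 WT libraries, so its fitted value depends on the prior count. It was at least 33.6-fold lower when KO is set to a floor of 3 counts summed over its libraries, and the 95% counting interval of the ratio, which takes in the counting error of the WT reads too, starts at 27. Adam3, a member of the ADAM family known from sperm, had 2 reads in KO and 357 in WT, which is 107-fold lower, between 29.3 and 883 by counting error. These limits cover counting error only, because amplified reads are not independent molecules.

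Cfd encodes adipsin, the complement factor D that fat secretes (chromosome 10, 79890853 to 79892655, plus strand). It measured 9.10, 5.57 and 4.92 CPM in KO and 572, 405 and 432 CPM in WT, 71.8-fold lower (log2 fold change -6.17 ± 0.49, adjusted p = 0.000306). The lowest WT library stood far above the highest KO library. Mest, an imprinted gene that marks fat tissue expansion, fell from 259.8, 365 and 189 CPM in WT to 6.36, 7.91 and 6.47 CPM in KO (-5.29 ± 0.97). The pantetheinase Vnn1 was 76.4-fold lower and its neighbour Vnn3 35.9-fold lower, although reads of such close relatives can be shared between them. Acsm5, a mitochondrial acyl-CoA synthetase, was 45.3-fold lower, Eci3, a peroxisomal enoyl-CoA isomerase with near relatives, 26.4-fold, and Baiap2l2, which shapes membranes on actin, 29.1-fold. Prr32 (-5.21), Cdsn (-4.62), which encodes corneodesmosin, and Crtac1 (-4.61), a secreted cartilage protein, complete the 12 lowest log2 values. That no KO library overlapped a WT library for any of the 12 was a condition of their choice. The call of Klf14 depended on all 6 libraries (adjusted p 0.0513 to 0.0658).

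The 12 highest called genes under the same limits were of mixed kinds, with Gpnmb, Tm4sf19, Nptx1 and Spp1 among them. Gpnmb, a glycoprotein of lysosomes in phagocytes (chromosome 6, 49036546 to 49070929, plus strand), measured 977, 1025 and 1242 CPM in KO and 10.3, 19.5 and 20.7 CPM in WT, 64.3-fold higher (log2 fold change 6.01 ± 0.73, adjusted p = 0.00151). Tm4sf19, a tetraspanin-like membrane protein, went from 0.142, 0.124 and 0.381 to 19.4, 23.1 and 30.4 CPM, a rise of 122-fold (6.93 ± 0.72). Atp6v0d2, a proton pump subunit typical of osteoclasts, was at 88.5, 108 and 129.6 CPM in KO and 1.63, 3.42 and 2.92 CPM in WT (5.35 ± 0.81). All 3 KO libraries were far above the 3 WT libraries for these genes, of which the absence of overlap was a condition of the choice.

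Spp1, the secreted protein osteopontin, measured 22.7, 23.2 and 30.6 CPM in KO and 0.107, 0.498 and 0.888 CPM in WT, a log2 fold change of 5.76 ± 1.60 with the widest error of the 12 highest. Nptx1, a secreted pentraxin known from neurons, was 75.2-fold higher, and Il1rn, the interleukin-1 receptor antagonist, 17.1-fold. Adam8, a membrane protease of myeloid cells, rose from 12.6, 9.11 and 15.1 to 224, 215 and 297 CPM. Smaller in level were Myh15 (5.17), Rnf128 (5.01), a ubiquitin ligase, F7 (4.55), the clotting factor VII, Vsig8 (4.43) and Ankdd1a (4.15), all log2 fold changes. Spp1 depended on all 6 libraries (adjusted p 0.0672 to 0.137), and Vsig8 missed the threshold without KO replicate 1 or 3 or WT replicate 1 or 3 (0.0507 to 0.0682).

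By p-value rather than size, the first 6 genes were Pianp, Cyth4, Vat1l, Myo1f, Chdh and Tcirg1, each with an adjusted p of 0.000273. Cyth4, an exchange factor for small GTPases in leukocytes, measured 109.9, 111 and 124 CPM in KO and 24.6, 18.8 and 22.8 CPM in WT (2.38 ± 0.16). Myo1f, a myosin of immune cells, measured 159, 142 and 161 and 19.3, 17.1 and 20.9 CPM (3.01 ± 0.21), and Tcirg1, the proton pump subunit that osteoclasts need, 205, 165 and 196 and 41.3, 37.3 and 38.1 CPM (2.28 ± 0.17). Pianp, a neuronal ligand of the receptor PILRA, was 13.6-fold higher. Of the 2 lower ones, Chdh, the mitochondrial choline dehydrogenase, fell from 375, 389 and 346 CPM to 22.6, 24.3 and 26.9 CPM (-3.91 ± 0.28) and Vat1l by 4.18 on the log2 scale. All 6 were separated by genotype without overlap.

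Mature adipocyte transcripts were lower throughout, as all 24 mature adipocyte markers fell (18 to 24 of them when single libraries were left out), at a median log2 fold change of -2.90. Adipoq, the gene of the hormone adiponectin, measured 134, 184 and 200.4 CPM in KO and 1676, 1864 and 1759 CPM in WT, 10.2-fold lower (-3.35 ± 0.60, adjusted p = 0.00707). Lep, the gene of leptin, measured 112, 121 and 189 and 1109.6, 1456 and 1529 CPM (-3.28 ± 0.88). Plin1, which coats lipid droplets, measured 311, 386 and 366 and 1826, 2016 and 1723 CPM (-2.39 ± 0.45). None of the 3 showed overlap between the genotypes. Fabp4, the fatty acid carrier, was 4.07-fold lower, Nnat, an imprinted membrane proteolipid, 9.88-fold, Retn, the gene of resistin, 12.1-fold, and Adrb3, the adrenergic receptor through which catecholamines start lipolysis, 6.43-fold. Summed over the list, the markers reached 5215, 6282 and 5655 CPM in KO and 38629, 43619.9 and 39752 CPM in WT, a ratio of 7.11 of WT over KO. In bulk tissue, fewer adipocytes and less of each RNA per adipocyte cannot be told apart, which holds for every adipocyte gene below. With this sum as a covariate 1765 genes were higher and 654 lower, and since the sum did not overlap between genotypes, the covariate and the genotype cannot be told apart. Lep depended on all 6 libraries (adjusted p 0.0660 to 0.123) and Fabp4 on KO replicates 1, 2 and 3 and WT replicate 2 (0.0559 to 0.0737).

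The receptor that rosiglitazone binds fell with them. Pparg measured 45.3, 62.1 and 45.1 CPM in KO and 138, 185 and 163 CPM in WT, 3.19-fold lower (-1.67 ± 0.46, adjusted p = 0.0373), without overlap, and the call depended on all 6 libraries (0.0687 to 0.124). Cebpa, its partner in adipocyte differentiation, measured 161, 162 and 151 and 644, 712 and 619 CPM (-2.06 ± 0.36). In all, 11 of 20 adipogenic transcription factors passed, each of them lower (7 to 11 when single libraries were left out, median -0.94), among them the glucocorticoid-responsive factor Klf15 (-2.42 ± 0.32), the beige fat regulator Prdm16 (-1.99 ± 0.27), the corepressor Nrip1 (-1.60 ± 0.26) and the clock repressor Nr1d1 (-1.56 ± 0.26). Of 29 known PPARG targets 21 fell (15 to 24) with a median of -2.07. Pck1, the PEPCK enzyme that makes glycerol phosphate in fat, went from 3566, 3742 and 2707 CPM in WT to 279, 322 and 333 CPM in KO (-3.42 ± 0.44, adjusted p = 0.00176). The fatty acid transporter Slc27a1 fell by 2.04 on the log2 scale. Target sums were 10253, 12332 and 11847 CPM in KO and 52742, 60979 and 52199.8 CPM in WT.

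Among 19 adipokines tested 11 fell and 2 rose (median -1.34). Besides Cfd, Retn, Lep and Adipoq, Nrg4, a growth factor of the EGF family that acts on the liver, was lower at 14, 19.9 and 17.4 CPM in KO against 155, 177 and 128 CPM in WT (-3.17 ± 0.37). Those that rose were Gdf3, a TGF-beta family ligand, from 0.995, 0.560 and 0.634 to 7.98, 5.42 and 5.97 CPM (3.13 ± 0.40), and Metrnl, named after its values were seen, at 2.00 ± 0.45. Metrnl missed the threshold without KO replicate 1 or 3 or WT replicate 1, 2 or 3 (adjusted p 0.0555 to 0.0671). With single libraries left out, 5 to 14 adipokines were lower and 1 to 2 higher.

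**Figure D2:**
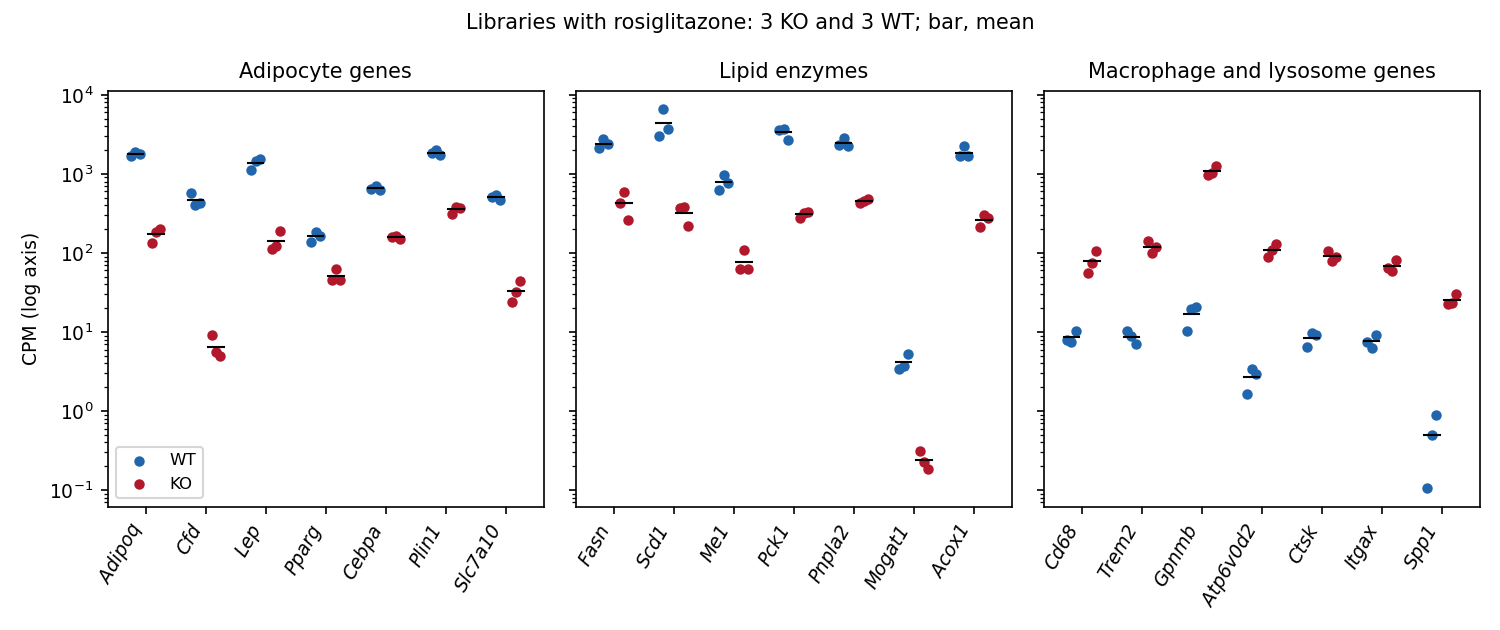
CPM on a log axis of 21 genes in each library with rosiglitazone, 3 WT in blue and 3 KO in red, with bars at the means. Adipocyte genes and lipid enzymes lie lower in KO (left and middle) and macrophage and lysosome genes higher (right), with no overlap between the genotypes for any gene shown.

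Fat synthesis genes were lower. Of 20 genes of de novo fatty acid synthesis and its control 12 fell (4 to 14 when single libraries were left out), with a median of -1.25. Scd1, the desaturase that makes oleate, measured 371, 381 and 216 CPM in KO and 3013, 6531 and 3649.9 CPM in WT, 13.6-fold lower (-3.77 ± 0.63, adjusted p = 0.00543). Fasn, the fatty acid synthase, measured 425, 593 and 263 and 2145, 2722 and 2365 CPM (-2.50 ± 0.57, adjusted p = 0.0189). Both were lower in each KO library than in each WT library. Slc25a1, which exports citrate from mitochondria, fell by 2.71 and Pnpla3, a lipid droplet hydrolase that insulin induces, by 3.46 on the log2 scale. The factors that switch these genes on were close to the median of the list: Srebf1 went from 566, 619.6 and 577 to 241, 300.4 and 224 CPM (-1.20 ± 0.29) and Mlxipl, the gene of ChREBP, from 61.6, 78.8 and 71.0 to 25.1, 41.2 and 27.2 CPM (-1.18 ± 0.35). Fasn lost its call without KO replicate 1 or 3 or WT replicate 2 (adjusted p 0.0622 to 0.0836), Srebf1 depended on all 6 libraries (0.0501 to 0.0942), and Mlxipl on these and WT replicates 2 and 3 on diet (0.0538 to 0.162).

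The Fasn promoter is shown because CCAAT, the letters read by the factor NF-Y, stood in promoters of 13 of 16 of these genes (81.3%). A gene counted once if any of its listed promoters held the letters. That held for 42.0% of the tested genes, 44.0% of all genes called lower and, counted singly, 37.4% of all promoters of the same length. Other lists reached such shares, such as cholesterol synthesis (94.1%), the unfolded protein response (88.9%) and the circadian clock (81.3%). The complement list had 6.67%. The Fasn promoter is the RefSeq sequence of chr11:120824498-120824797 (GRCm38.p6, minus strand), 250 bases before the start to 50 after, 5′ to 3′. In it CCAAT on either strand (ATTGG on the other) is in capitals.
Fasn: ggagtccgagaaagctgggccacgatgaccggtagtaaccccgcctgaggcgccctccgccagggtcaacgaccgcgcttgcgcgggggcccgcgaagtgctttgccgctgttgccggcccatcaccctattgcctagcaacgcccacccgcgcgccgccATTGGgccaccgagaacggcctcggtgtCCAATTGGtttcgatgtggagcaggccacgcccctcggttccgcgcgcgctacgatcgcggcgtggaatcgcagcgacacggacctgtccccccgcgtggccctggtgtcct
The letters began 90, 62 and 59 bases before the start, the last of them overlapping their reverse complement by 2 bases. A match of letters is a description and not a binding site.

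NADPH, which fatty acid synthesis consumes, comes from genes of which 7 of 12 fell (1 to 9, median -1.23). Me1, the malic enzyme, went from 625, 953 and 777 CPM in WT to 62.2, 108 and 61.7 CPM in KO (-3.34 ± 0.63, adjusted p = 0.00903), with no overlap. H6pd (-1.82 ± 0.41), Taldo1 (-1.51 ± 0.38) and G6pdx (-2.14 ± 0.55), enzymes of the pentose phosphate pathway and its counterpart in the endoplasmic reticulum, fell too. The remaining 3, Nadk (-1.24 ± 0.33), which makes NADP from NAD, and the pentose phosphate enzymes Tkt (-1.22 ± 0.33) and Rpe (-0.98 ± 0.28), were lower by less. H6pd missed the threshold without KO replicate 1, 2 or 3 or WT replicate 2 (adjusted p 0.0556 to 0.0743). Taldo1 (0.0631 to 0.0973), G6pdx (0.0523 to 0.103), Nadk (0.0607 to 0.110) and Tkt (0.0690 to 0.123) depended on all 6 libraries, and Rpe on these and WT replicate 2 on diet (0.0535 to 0.132).

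Cholesterol synthesis was split: 10 of 25 genes fell and 2 rose (4 to 12 lower and 0 to 4 higher when single libraries were left out, median -0.62). Acat2, the cytosolic thiolase at its entry, measured 16.0, 18.4 and 15.1 CPM in KO and 100.3, 124 and 99.9 CPM in WT (-2.71 ± 0.29, adjusted p = 0.000833). Fdft1, squalene synthase, fell by 2.07, Sc5d, a late desaturase, by 2.58, and Insig1, which retains SREBP in the endoplasmic reticulum, by 2.94 on the log2 scale. Of those that rose, Mvd, the mevalonate decarboxylase, rose by 0.83 and was named after its values were seen. Its call depended on KO replicates 1, 2 and 3, WT replicates 2 and 3 and WT replicate 2 on diet (adjusted p 0.0579 to 0.161).

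Genes of triglyceride storage and of its release were lower. In triglyceride synthesis 15 of 22 genes fell (9 to 17, median -1.94). Mogat1, the monoacylglycerol acyltransferase, measured 0.312, 0.226 and 0.187 CPM in KO and 3.45, 3.76 and 5.20 CPM in WT, 16.6-fold lower (-4.06 ± 0.42, adjusted p = 0.000741). The glycerol phosphate acyltransferases Gpat4 (-1.89 ± 0.23) and Gpat3 (-2.44 ± 0.37) fell as well. In lipolysis 12 of 18 fell (7 to 14, median -2.20): Pnpla2, the first lipase of the pathway, went from 2326, 2882 and 2251 to 424, 455 and 482 CPM (-2.46 ± 0.40). Adora1, the receptor through which adenosine restrains lipolysis, was 8.96-fold lower, and Pde3b, the phosphodiesterase through which insulin does so, 5.51-fold. Of 15 lipid droplet proteins tested 7 fell (4 to 8, median -1.28), including Plin4, at 1204, 1271 and 1330.5 CPM in KO and 8661, 8826 and 8280.1 CPM in WT, and Cidec, which fuses droplets (-3.21 ± 0.56). Besides Plin1 and Pnpla2 the others were Fitm2 (-2.05 ± 0.41) and Bscl2 (-1.90 ± 0.41), which help droplets form, and G0s2 (-1.28 ± 0.37), the inhibitor of Pnpla2. Fitm2 missed the threshold without KO replicate 1 or 3 (adjusted p 0.0520 to 0.0522), Bscl2 without KO replicate 1, 2 or 3 or WT replicate 2 (0.0515 to 0.0620), and G0s2 depended on all 6 libraries and WT replicate 2 on diet (0.0536 to 0.149).

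Fatty acid uptake had 5 of 16 members lower (2 to 9, median -1.32), which were Slc27a1, Acsl1, Fabp4, Angptl4 and Gpihbp1. Acsl1, the main long-chain acyl-CoA synthetase of fat, measured 449, 536 and 472 CPM in KO and 2929, 3378 and 2865 CPM in WT (-2.65 ± 0.47). Angptl4, an inhibitor of lipoprotein lipase, fell by 1.88 and Gpihbp1, which carries that lipase across capillaries, by 1.39 on the log2 scale. Both depended on all 6 libraries (adjusted p 0.0728 to 0.138 and 0.0509 to 0.150), and Gpihbp1 also on WT replicate 2 on diet. Lpl, the lipase, had a log2 fold change of -2.08 ± 0.64 (adjusted p = 0.0543), and Cd36, a fatty acid receptor, of -1.52 ± 0.60 (adjusted p = 0.117). Neither passed, and both were named after their values were seen.

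Under the treatment labels, mitochondrial genes encoded in the nucleus were lower in several pathways, which was not so under the WT titles. Of 74 oxidative phosphorylation genes tested 45 fell, with a median of -1.11. The number of them past the threshold was 5 to 61 when single libraries were left out. It was 28 with the muscle covariate and 20 with B cell markers as a covariate. Ndufb3 of complex I measured 10.3, 7.45 and 9.52 CPM in KO and 31.3, 41.9 and 36.3 CPM in WT (-2.0 ± 0.30, adjusted p = 0.00338), without overlap. Ndufs3 (-1.44 ± 0.25) and Ndufv3 (-1.42 ± 0.26) of complex I and Cox5b (-1.12 ± 0.20) of complex IV also fell. Among the 13 protein genes of mitochondrial DNA 4 passed, all lower, at a median of -1.39 (0 to 10 lower when single libraries were left out). With the muscle covariate 1 was lower, and with the B cell covariate 1. The 4 were mt-Nd4l (-1.33 ± 0.29), mt-Nd5 (-1.39 ± 0.39), mt-Nd4 (-1.56 ± 0.45) and mt-Cytb (-1.84 ± 0.53). The last 3 depended on all 6 libraries and on WT replicate 2 on diet (adjusted p 0.0581 to 0.144, 0.0562 to 0.140 and 0.0535 to 0.144), and mt-Nd4l on KO replicates 1 and 3 and WT replicate 2 (0.0628 to 0.0722).

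Of 29 genes of the TCA cycle and of pyruvate dehydrogenase 27 fell (4 to 28, median -1.60). With the muscle covariate 20 were lower and with the B cell covariate 14. Pcx, pyruvate carboxylase, which feeds oxaloacetate and citrate to fat synthesis, measured 152, 211 and 167 CPM in KO and 1246, 1691 and 1302 CPM in WT, 7.99-fold lower (-3.00 ± 0.53, adjusted p = 0.00668). Sdha of succinate dehydrogenase measured 159, 200.3 and 144 and 474, 670.2 and 462 CPM (-1.67 ± 0.31). No library of one genotype reached the other in either gene. Pdhx of the pyruvate dehydrogenase complex fell by 1.71 and Suclg2 by 1.18 on the log2 scale.

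Fatty acid oxidation had 19 of 24 genes lower (5 to 21, median -1.72). Acads, the short-chain acyl-CoA dehydrogenase, went from 332, 441 and 302 to 69.5, 84.1 and 62.2 CPM (-2.32 ± 0.43), and Eci1 (-2.09 ± 0.32) and Echs1 (-1.43 ± 0.23), an isomerase and a hydratase of the spiral, fell too. Of 27 peroxisomal genes 21 fell and 1 rose (8 to 24 lower, median -1.41), with Phyh, which starts the alpha-oxidation of branched fatty acids, at 14.8, 24.8 and 18.5 CPM in KO and 104, 120.2 and 105 CPM in WT, its partner Hacl1 at -2.14 ± 0.25, and the assembly factor Pex6 at -0.93 ± 0.16.

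Breakdown of branched-chain amino acids, a fuel that adipocytes burn, had 22 of 25 genes lower (17 to 23, median -1.84). Hibch, of the valine branch, measured 30.4, 37.3 and 33.5 CPM in KO and 167, 203 and 153 CPM in WT (-2.37 ± 0.28, adjusted p = 0.00131). Ivd (-1.84 ± 0.23), Mccc1 (-1.78 ± 0.24) and Mccc2 (-2.45 ± 0.31) of the leucine branch fell with it. All 3 KO libraries were below the WT libraries in these genes.

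Of 20 glycolysis genes 4 were lower and 2 higher (1 to 5 lower and 1 to 3 higher, median -0.76). Of all genes 9.5% were called lower and 5.47% higher. With the muscle covariate 1 glycolysis gene was lower and 1 higher, and the same held with B cell markers as a covariate. Pfkfb3, which makes the activator of phosphofructokinase, was 6.45-fold lower at 175, 223 and 170.2 CPM in KO and 1083, 1466 and 1113 CPM in WT. Slc2a4, the insulin-responsive glucose transporter GLUT4, measured 34.1, 119.7 and 45.8 and 253, 262 and 282 CPM (-2.0 ± 0.59). KO replicate 2, the library with most muscle RNA, was the highest of the 3 KO libraries in Slc2a4, which muscle also expresses. Pgam1 (-1.48 ± 0.40) and Pfkl (-1.10 ± 0.33) were the other members that fell, and Aldoc (3.36 ± 0.68) and Pfkp (0.49 ± 0.15) those that rose. Pgam1 depended on all 6 libraries (adjusted p 0.0664 to 0.121), Pfkl (0.0656 to 0.142) and Pfkp (0.0566 to 0.164) on these and WT replicate 2 on diet, and Slc2a4 on the same libraries except KO replicate 2 (0.0671 to 0.152).

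Insulin signalling genes were lower in 12 of 24 cases and higher in 1 (5 to 17 lower, median -0.86). Akt2, the kinase that carries the insulin signal to glucose uptake in fat, measured 135, 181 and 138 CPM in KO and 580.1, 727 and 572 CPM in WT (-2.05 ± 0.30, adjusted p = 0.00334). Grb14, an inhibitor of the insulin receptor, was 7.82-fold lower. Ptpn1, the phosphatase PTP1B, rose by 0.71 on the log2 scale, was named after its values were seen, and missed the threshold without KO replicate 1 or 3 or WT replicate 1, 2 or 3 (adjusted p 0.0615 to 0.122).

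Targets of ATF4, a transcription factor of amino acid stress that mTORC1 also controls, went both ways, 7 of 29 lower and 4 higher (2 to 10 lower and 3 to 4 higher, median -0.59). Phgdh, the first enzyme of serine synthesis, measured 37.8, 31.5 and 31.6 CPM in KO and 205, 254 and 212 CPM in WT, 6.65-fold lower (-2.73 ± 0.44). Aldh18a1, of proline synthesis, went from 10.6, 10.5 and 12.7 to 23.8, 23.1 and 26.2 CPM (1.11 ± 0.14), and Mthfd2, of the mitochondrial folate cycle, rose by 1.21. The amino acid transporters Slc7a5 (1.26 ± 0.25) and Slc7a1 (0.82 ± 0.20) were the other risers and were named after their values were seen. Slc7a1 missed the threshold without KO replicate 1, 2 or 3 or WT replicate 2 or 3 (adjusted p 0.0514 to 0.107).

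Brown and beige markers had 5 of 25 members lower and 1 higher (2 to 5 lower and 0 to 1 higher when single libraries were left out). Of all genes 9.5% were called lower and 5.47% higher. The list median was -0.34, and -0.78 without KO replicate 2. The riser was Tmem26, a beige cell marker (2.92 ± 0.71). Those that fell were Adrb3, Prdm16, Clstn3 (-2.24 ± 0.50), Pdk4 (-2.73 ± 0.74), which shuts pyruvate out of mitochondria, and Ppara (-1.79 ± 0.49). Ppara is the receptor that drives fatty acid oxidation. Ucp1, the uncoupling protein of heat-producing fat, measured 30.5, 139 and 24.3 CPM in KO and 45.1, 115 and 23.7 CPM in WT, a log2 fold change of 0.07 ± 1.60 (adjusted p = 0.981). Its libraries overlapped fully, with replicate 2 the highest in both genotypes. Tmem26 (adjusted p 0.0513 to 0.0824) and Pdk4 (0.0544 to 0.125) depended on all 6 libraries, Ppara on the same except KO replicate 2 and also on WT replicate 2 on diet (0.0523 to 0.144), and Clstn3 on KO replicates 1 and 3 and WT replicate 2 (0.0647 to 0.0768).

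Of 11 genes of creatine and calcium cycling, routes of heat production apart from Ucp1, 3 rose and 1 fell. Ckb, the brain-type creatine kinase, measured 78.1, 70.4 and 71.2 CPM in KO and 11.9, 12 and 13.3 CPM in WT, 5.91-fold higher (2.56 ± 0.34, adjusted p = 0.00193). Slc6a8, the creatine transporter, went from 16.8, 22.5 and 22.7 to 73.2, 77.5 and 82.1 CPM (1.91 ± 0.29). In both genes the lowest KO library was above the highest WT library. Gatm, which starts creatine synthesis, rose by 1.11 and the adrenergic receptor Adra1a fell by 2.12 on the log2 scale. The median was 0.39, and -1.01 on the TPM scale and -0.48 without KO replicate 2. Adra1a depended on all 6 libraries and WT replicate 2 on diet (adjusted p 0.0622 to 0.145), and Gatm on KO replicates 1 and 3, WT replicates 1, 2 and 3 and WT replicate 3 on diet (0.0581 to 0.142).

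**Figure D3:**
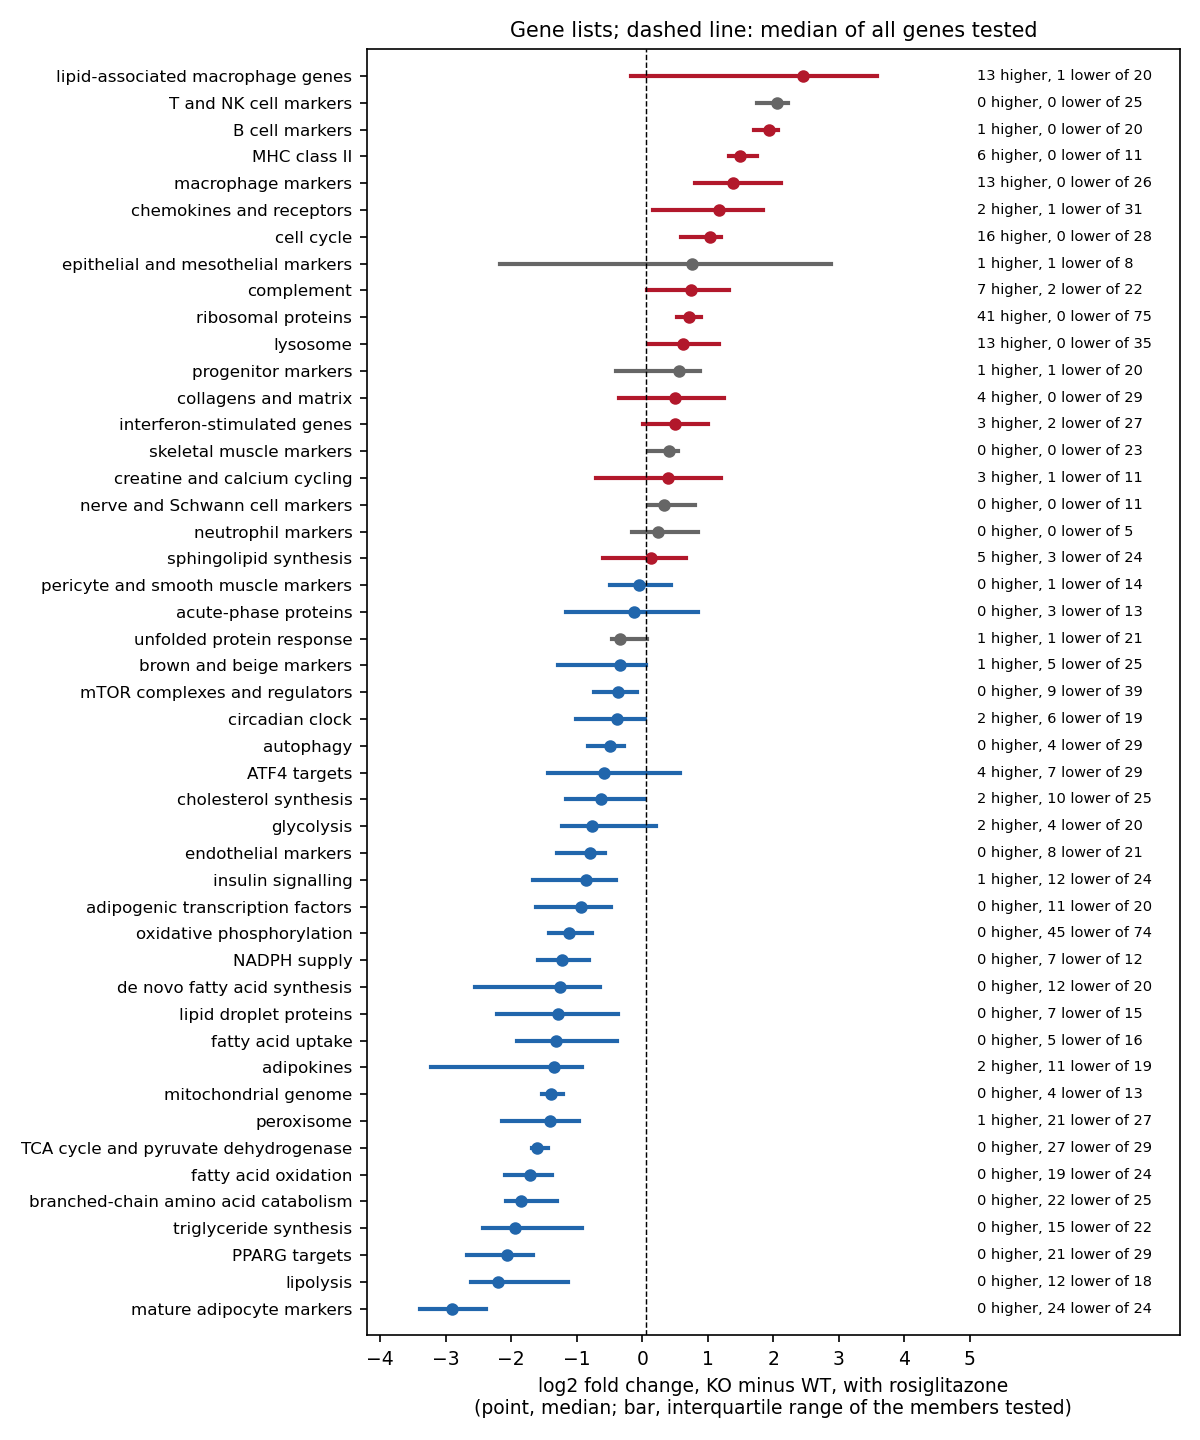
Median (point) and interquartile range (bar) of the log2 fold changes of 47 gene lists, KO minus WT with rosiglitazone, with the counts of members called higher and lower at the right. Blue marks lists with more members called lower, red those with more called higher and grey those with equal counts. Mature adipocyte markers have the lowest median and lipid-associated macrophage genes the highest.

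Macrophage transcripts were higher in KO. Of 26 macrophage markers 13 rose (7 to 17 when single libraries were left out), at a median of 1.38, and on the TPM scale 7 did. Cd68, a lysosomal glycoprotein of macrophages, measured 55.7, 73.9 and 105 CPM in KO and 7.92, 7.37 and 10.3 CPM in WT, 9.17-fold higher (3.20 ± 0.46, adjusted p = 0.00294). The lysosomal protease Ctss measured 341, 218 and 281 and 32.7, 25.5 and 36.9 CPM (3.14 ± 0.29). Mpeg1, a pore-forming protein of phagocytes (2.58 ± 0.29), and Cd84, a receptor of leukocytes (2.47 ± 0.24), were higher in each KO library than in any WT library. The list summed to 3675, 3226 and 4025 CPM in KO and 1045, 1081 and 1284 CPM in WT.

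Genes of lipid-associated macrophages, the cells that gather around dying adipocytes, had the highest median of all lists, 2.45, with 13 of 20 higher and 1 lower (9 to 13 higher when single libraries were left out). TPM gave 9 higher and 3 lower. Trem2, the lipid receptor that defines these cells, measured 142, 98.3 and 119.8 CPM in KO and 10.3, 8.87 and 6.98 CPM in WT, 13.7-fold higher (3.78 ± 0.37, adjusted p = 0.000558). Itgax, the integrin CD11c, went from 7.50, 6.22 and 9.20 to 65.3, 59.0 and 80.5 CPM (3.16 ± 0.30), and the signalling adaptor Tyrobp from 4.76, 5.26 and 5.90 to 53.9, 42.9 and 54.3 CPM (3.25 ± 0.35). The tetraspanin Cd9 rose by 1.59. The one that fell was Acp5, tartrate-resistant acid phosphatase (-2.06 ± 0.31), named after its values were seen. The summed list was lower in KO, 6676, 7068 and 7980.3 against 12941, 15050.0 and 13774 CPM, and it holds Lpl and Cd36, which adipocytes express too.

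Lysosome genes, which TFEB and its relatives switch on and mTORC1 restrains through them, were higher in 13 of 35 cases (5 to 14 when single libraries were left out), with a median of 0.61 and with 2 higher at a median of 0.08 on the TPM scale. Ctsk, the cathepsin of osteoclasts and tissue macrophages, measured 106, 79.5 and 88.7 CPM in KO and 6.43, 9.58 and 9.13 CPM in WT (3.45 ± 0.47, adjusted p = 0.00248). Gla, alpha-galactosidase, measured 31.7, 28.8 and 30.3 and 9.17, 9.02 and 8.62 CPM (1.76 ± 0.30), and cathepsin Ctsh 82.0, 72.7 and 85.8 and 37.6, 31.2 and 41.6 CPM (1.12 ± 0.19). The KO libraries stood above the WT libraries in each. The summed list was 10842, 9209.9 and 10685 CPM in KO and 5392, 6290.2 and 5788 CPM in WT. Macrophages are rich in lysosomes and their markers rose by the amounts above, and the part of that in the lysosome genes was not tested.

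The E-box CACGTG, the core of the element that TFEB reads, was in promoters of 10 of 26 lysosome genes (38.5%). The share of the tested genes was 10.1%. A gene counted once if any of its listed promoters held the E-box, whereas the share of all promoters of the same length, 7.15%, counts each promoter singly. Among all genes called higher the share was 10.3% and among those called lower 9.97%. The promoters of Gla and Ctsa (protective protein cathepsin A, 1.08 ± 0.26, chosen after its values and letters were seen) hold it more than once and are shown for that reason. Both are RefSeq sequences of GRCm38.p6, 250 bases before the start to 50 after, 5′ to 3′, with CACGTG, and CCAAT on either strand, in capitals. Gla is chrX:134600956-134601255 on the minus strand and Ctsa chr2:164833523-164833822 on the plus strand, the second of the 2 starts listed for it. The promoter of the other start holds 0 copies of either motif.
Gla: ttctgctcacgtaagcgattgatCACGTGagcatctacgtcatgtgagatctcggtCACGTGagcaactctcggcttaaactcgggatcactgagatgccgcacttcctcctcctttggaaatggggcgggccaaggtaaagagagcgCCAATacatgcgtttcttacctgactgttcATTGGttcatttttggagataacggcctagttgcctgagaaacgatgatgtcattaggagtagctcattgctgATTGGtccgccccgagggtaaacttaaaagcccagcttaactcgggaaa
Ctsa: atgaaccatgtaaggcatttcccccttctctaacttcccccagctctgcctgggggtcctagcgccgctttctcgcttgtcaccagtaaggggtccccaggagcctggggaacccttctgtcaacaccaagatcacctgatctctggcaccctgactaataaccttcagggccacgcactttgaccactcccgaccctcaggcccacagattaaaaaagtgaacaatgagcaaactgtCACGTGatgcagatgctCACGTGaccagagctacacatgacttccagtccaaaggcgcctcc
In Gla the E-boxes began 227 and 194 bases before the start, and in Ctsa 12 bases before and 5 after, with no overlap between motifs. CACGTG reads the same on both strands, and other letters may serve the same factors. Ctsa missed the threshold without KO replicate 1 or 3 or WT replicate 1, 2 or 3 (adjusted p 0.0594 to 0.0862).

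Among 29 autophagy genes 4 passed, all lower (1 to 13 when single libraries were left out, median -0.50). This count is not far from the share of all genes called lower, 9.5%. Among protein-coding genes alone 2164 of 16851 were called lower. The fold change was below 0 for 28 of the 29 members and for 12620 of all 26960 genes. The 4 called members were the cargo receptor Optn (-2.14 ± 0.38), the membrane recruiter Wipi2 (-0.92 ± 0.20), the starting kinase Ulk2 (-1.39 ± 0.33) and Map1lc3a, of the LC3 family (-2.03 ± 0.47). Wipi2 missed the threshold without KO replicate 1, 2 or 3 or WT replicate 2 (adjusted p 0.0505 to 0.0645), Map1lc3a without KO replicate 1 or 3 or WT replicate 2 (0.0648 to 0.0816), and Ulk2 without these or WT replicate 3 (0.0538 to 0.0929).

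MHC class II genes, which present antigens, had 6 of 11 members higher (2 to 6, median 1.49), with 0 on the TPM scale at a median of 1.03. H2-Ab1 measured 263, 175 and 215 CPM in KO and 110.4, 59.2 and 87.4 CPM in WT (1.35 ± 0.26), and H2-DMb1, which loads peptides, 31.2, 32.6 and 38.1 and 16.6, 8.99 and 10.7 CPM (1.49 ± 0.27). H2-DMa (1.31 ± 0.26), H2-Aa (1.29 ± 0.27), H2-Eb1 (1.24 ± 0.29) and the chaperone Cd74 (1.40 ± 0.37) rose as well, and these relatives can share reads. Without WT replicate 2 the calls of all 4 were lost (adjusted p 0.0524 for H2-DMa), as was that of H2-Aa without KO replicate 1 (0.0508 to 0.0580 over both), and those of H2-Eb1 (0.0608 to 0.0850) and Cd74 (0.0867 to 0.118) without KO replicate 1 or 3 or WT replicate 3. Of 20 B cell markers 1 passed, a share no larger than the 5.47% of all genes called higher. All 20 had fold changes above 0, at a median of 1.93. The called marker was the adaptor Blnk, from 15.5, 5.75 and 13.1 to 60.7, 54.5 and 69.4 CPM (2.43 ± 0.52). Blnk missed the threshold without KO replicate 3 or WT replicate 2 (adjusted p 0.0517 to 0.0542).

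For T and NK cells the median marker stood at 2.06, and edgeR called 0 of 25. At an unadjusted p under 0.05 the number was 2, DESeq2 called 1 and limma-voom 4, all higher. Il7r, the interleukin-7 receptor, measured 101, 105 and 137 CPM in KO and 15.3, 4.29 and 34.2 CPM in WT (2.68 ± 0.90, adjusted p = 0.0762), and Thy1 63.1, 41.5 and 48.7 and 27.1, 15.2 and 30.4 CPM (adjusted p = 0.146). The summed list was 817, 726 and 836 CPM in KO and 231, 47.3 and 306 CPM in WT, and that of B cells 1368, 1523 and 1688 and 824, 252 and 594 CPM, with WT replicate 2 the lowest in both. The inguinal depot holds a lymph node, and the part of differing node content in the immune genes was not tested beyond the fit with B cell markers as a covariate, in which macrophage markers had a median of 1.87 and MHC class II of 0.78. In that fit the T and NK median turned to -0.64, and that of the B cell markers, which form the covariate, to -0.91 with 11 of 20 lower and 1 higher.

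**Figure D4:**
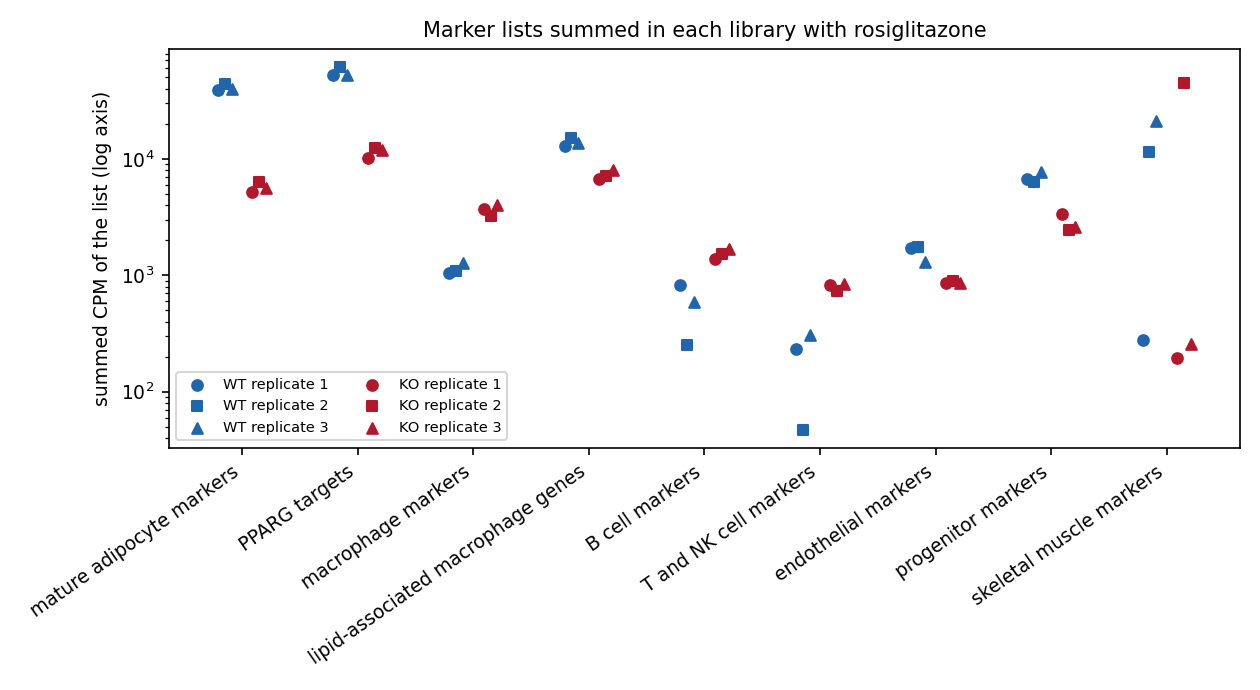
Summed CPM on a log axis of 9 marker lists in each library with rosiglitazone, WT in blue and KO in red, with 1 symbol per replicate. Adipocyte and PPARG target sums are lower and the sum of macrophage markers higher in each KO library, while that of lipid-associated macrophage genes is lower, the T and NK sum is lowest in WT replicate 2, and muscle sums range over all libraries without order by genotype.

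Complement genes had 7 of 22 members higher and 2 lower, Cfd and Cd59a (2 to 9 higher when single libraries were left out, median 0.75). The anaphylatoxin receptors rose: C3ar1 measured 119, 122 and 181 CPM in KO and 11.8, 17.5 and 16.8 CPM in WT (3.19 ± 0.63), and C5ar1 65.3, 49.3 and 67.0 and 7.04, 10.2 and 8.69 CPM (2.81 ± 0.54). Cd59a, which blocks the membrane attack complex, fell by 3.03. On the TPM scale the counts were 2 higher and 2 lower. Among 31 chemokines and receptors Ccl9 (2.80 ± 0.71), a macrophage chemokine, and Cx3cl1, fractalkine (1.07 ± 0.29), rose and Cxcl9, induced by interferon gamma, fell (-1.66 ± 0.37). The chemokine shares lay near or below those of all genes, 5.47% called higher and 9.5% called lower. Of 27 interferon-stimulated genes Oas1a (1.69 ± 0.40), Irf9 (0.63 ± 0.17) and Mx1 (1.76 ± 0.49) rose, and Ifi27l2a (-2.89 ± 0.42) and Ifi27 (-1.78 ± 0.43) fell. The shares of all genes beside these counts are the same 5.47% and 9.5%. With single libraries left out, 0 to 8 interferon-stimulated genes were higher and 1 to 3 lower. Ccl9 (adjusted p 0.0539 to 0.0984) and Irf9 (0.0510 to 0.143) depended on all 6 libraries. Cx3cl1 (0.0724 to 0.128), Oas1a (0.0508 to 0.0764) and Mx1 (0.0581 to 0.147) depended on all but KO replicate 2, and Mx1 also on WT replicate 2 on diet. Ifi27 depended on all but WT replicate 3 (0.0518 to 0.0871) and Cxcl9 on KO replicates 1 and 3 and WT replicates 1 and 2 (0.0509 to 0.0709).

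Ribosomal protein genes, whose translation mTORC1 promotes, had 41 of 75 members higher, at a median of 0.71, whereas on the TPM scale 0 passed at a median of 0.12, with all genes at -0.30. With single libraries left out the number was 2 to 48. Rps26 measured 23.8, 16.6 and 23.8 CPM in KO and 10.2, 10.1 and 10.7 CPM in WT (1.05 ± 0.19, adjusted p = 0.00726) and Rpl39 34.3, 24.7 and 24.6 and 12.4, 9.55 and 16.1 CPM (1.14 ± 0.21). Rpl10a (1.10 ± 0.22) and Rpl17 (1.10 ± 0.23) were higher by similar amounts. These genes have many processed copies that can share reads. Rpl10a missed the threshold without WT replicate 2 (adjusted p 0.0544) and Rpl17 without KO replicate 1 or 3 or WT replicate 2 (0.0538 to 0.0606).

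Cell cycle genes were higher in 16 of 28 cases (8 to 17 when single libraries were left out, median 1.03), and on the TPM scale 0 passed at a median of 0.36. Mcm6, of the helicase that opens replication origins, measured 46.1, 44.4 and 45.1 CPM in KO and 17.9, 15.4 and 19.8 CPM in WT (1.35 ± 0.20, adjusted p = 0.00350). Pcna, the replication clamp, measured 55.3, 48.3 and 53.1 and 24.9, 25.4 and 30.4 CPM (0.96 ± 0.15), and the mitotic cyclin Ccnb2 4.80, 7.08 and 6.47 and 2.42, 2.64 and 2.47 CPM (1.28 ± 0.21). Each was higher in all KO libraries, as was the checkpoint kinase Bub1 (1.84 ± 0.31). CCAAT stood in promoters of 19 of 23 cell cycle genes (82.6%), against the 42.0% of tested genes given above and 40.8% of all genes called higher. Cholesterol synthesis (94.1%) and the unfolded protein response (88.9%) had higher shares, so a high share was not particular to this list. The Ccnb2 promoter, with 3 copies on 1 strand, is shown as an example chosen after its letters were seen. It is the RefSeq sequence of chr9:70421505-70421804 (GRCm38.p6, minus strand), 5′ to 3′, with CCAAT in capitals.
Ccnb2: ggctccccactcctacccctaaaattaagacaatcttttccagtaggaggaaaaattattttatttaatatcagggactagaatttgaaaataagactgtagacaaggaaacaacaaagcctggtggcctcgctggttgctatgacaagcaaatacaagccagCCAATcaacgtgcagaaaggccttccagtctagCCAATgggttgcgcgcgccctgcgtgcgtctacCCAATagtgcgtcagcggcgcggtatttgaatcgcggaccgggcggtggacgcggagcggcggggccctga
The letters began 87, 54 and 21 bases before the start and did not overlap.

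Markers of the vessels were lower in part. Of 21 endothelial markers 8 passed, all lower (1 to 15, median -0.80). Flt4, the receptor of lymphatic growth factors, measured 10.7, 10.6 and 10.8 CPM in KO and 25.7, 21.3 and 18.2 CPM in WT (-1.02 ± 0.16), and Robo4 (-1.31 ± 0.27), Cldn5 (-1.53 ± 0.34) and Kdr (-1.15 ± 0.29), the main VEGF receptor, fell too. Cdh5 (-1.34 ± 0.35), the cadherin of endothelial junctions, Tie1 (-0.80 ± 0.22), Mmrn2 (-0.88 ± 0.25) and Gpihbp1, given above, complete the 8. The list summed to 865, 895 and 851 CPM in KO and 1702, 1750.0 and 1306 CPM in WT. Of 14 pericyte and smooth muscle markers the proteoglycan Cspg4 alone passed, from 244, 233 and 210.2 to 54.4, 74.8 and 80.2 CPM (-1.72 ± 0.31). That share was no larger than the 9.5% of all genes called lower. Robo4 missed the threshold without KO replicate 1 or 3 or WT replicate 2 (adjusted p 0.0503 to 0.0605), and Cldn5 (0.0544 to 0.0722), Kdr (0.0596 to 0.0984) and Cdh5 (0.0732 to 0.120) depended on all but WT replicate 3. Tie1 (0.0530 to 0.129) and Mmrn2 (0.0677 to 0.144) depended on all 6.

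Matrix genes included 4 of 29 that rose (0 to 6, median 0.51 and -0.12 on the TPM scale). Col1a1, the main collagen of scars and tendon, measured 4163, 1901 and 2442 CPM in KO and 645, 770.4 and 837 CPM in WT (1.92 ± 0.43, adjusted p = 0.0171), with KO replicate 1 the highest. Col1a2 (1.69 ± 0.42), the protease Mmp14 (1.25 ± 0.29) and its inhibitor Timp2 (1.41 ± 0.36) were the other 3. Of 20 progenitor markers Dpp4 rose, from 14.8, 20.3 and 35.6 to 45.0, 51.2 and 55.4 CPM (1.10 ± 0.33), and Gsn, the actin-severing protein gelsolin, fell (-2.18 ± 0.44), with a list median of 0.57 and of -0.03 on the TPM scale. In each direction the progenitor share was no larger than that of all genes, 5.47% called higher and 9.5% called lower. Col1a1 (adjusted p 0.0520 to 0.0688) and Mmp14 (0.0539 to 0.0828) depended on KO replicate 1 and WT replicates 1, 2 and 3, and Col1a2 on these and KO replicate 3 (0.0562 to 0.0961). Timp2 depended on KO replicates 1 and 3 and WT replicates 1 and 2 (0.0733 to 0.102), Dpp4 on all but WT replicate 3 and on WT replicate 2 on diet (0.0680 to 0.173), and Gsn on KO replicate 3 (0.0593).

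Clock genes went both ways (3 to 8 lower and 0 to 2 higher when single libraries were left out). The repressors were lower, with Per3 at 89.5, 83.7 and 75.4 CPM in KO and 252, 215 and 218 CPM in WT (-1.46 ± 0.23), Nr1d1 at 32, 37.6 and 25.5 and 99.5, 103 and 78.6 CPM (-1.56 ± 0.26) and the output factor Tef at -1.12 ± 0.21, among 6 of 19 that fell. The others of these were the repressors Cry2 (-1.13 ± 0.26) and Per2 (-0.75 ± 0.23) and the nuclear receptor Rora (-1.21 ± 0.36). The activators Arntl, from 7.60, 6.32 and 7.17 to 12.6, 15.7 and 18 CPM (1.14 ± 0.24), and Npas2 (2.38 ± 0.66) rose. The hour at which tissue was taken is not labelled. Arntl missed the threshold without KO replicate 3 or WT replicate 2 (adjusted p 0.0600 to 0.0650), and Npas2 (0.0681 to 0.107) and Cry2 (0.0507 to 0.0719) depended on all 6 libraries, Per2 (0.0603 to 0.158) and Rora (0.0503 to 0.160) on these and WT replicates 2 and 3 on diet.

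Sphingolipid genes went both ways, 5 of 24 higher and 3 lower, at a median of 0.13 and of -0.46 on the TPM scale. Cerk, ceramide kinase, measured 99.7, 110.3 and 123 CPM in KO and 36.1, 28.7 and 32.1 CPM in WT (1.78 ± 0.16, adjusted p = 0.000512), and Cers6, the ceramide synthase of C16 chains, 69.5, 66.8 and 75.7 and 18.9, 15.7 and 20.04 CPM (1.96 ± 0.29). Acer3 (0.80 ± 0.17), Smpd3 (1.49 ± 0.38) and Degs2 (2.14 ± 0.61) were the other risers. Those that fell were the ceramidase Acer2, from 275, 318 and 247 to 67.0, 76.7 and 73.7 CPM (-1.95 ± 0.29), the reductase Kdsr (-1.52 ± 0.27) and Sptlc3, a subunit of the enzyme that starts the pathway (-2.86 ± 0.46). Acer3 missed the threshold without KO replicate 3 or WT replicate 2 or 3 (adjusted p 0.0529 to 0.0582), Smpd3 without KO replicate 1 or 3 or WT replicate 1 or 2 (0.0702 to 0.0947), and Degs2 depended on all 6 libraries and WT replicates 2 and 3 on diet (0.0526 to 0.144).

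Smaller lists gave few calls. Of 13 acute-phase proteins 3 fell, ceruloplasmin Cp (-1.69 ± 0.26), the serpin Serpina3c (-2.74 ± 0.64) and orosomucoid Orm1 (-2.37 ± 0.68). Of 21 genes of the unfolded protein response the ubiquitin-like Herpud1 fell (-0.79 ± 0.18) and the chaperone partner Sdf2l1 rose (0.89 ± 0.24). Neither share was larger than that of all genes, 9.5% called lower and 5.47% called higher. Of 8 epithelial and mesothelial markers Lrrn4, a mesothelial membrane protein, fell (-2.02 ± 0.26) and keratin Krt19 rose from 0.391, 0.0933 and 0.190 to 8.23, 0.904 and 1.06 CPM (3.88 ± 0.99), with KO replicate 1 the highest. Krt19 depended on KO replicate 1 and WT replicates 1, 2 and 3 (adjusted p 0.0577 to 0.140), Sdf2l1 on these and KO replicate 3 (0.0735 to 0.120), and Herpud1 on KO replicates 1 and 3 and WT replicates 2 and 3 (0.0580 to 0.0724). Serpina3c depended on all but WT replicate 1 (0.0536 to 0.0840) and Orm1 on all 6 libraries and WT replicate 2 on diet (0.0573 to 0.127).

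To see whether the genotype difference was the same without the drug, the KO minus WT difference with rosiglitazone was set against that on the diet alone by the interaction term of the same fit. It called 28 genes (0.104% of those tested), 23 with a higher (0.0853%) and 5 with a lower difference (0.0185%) under rosiglitazone, and 2840 had an unadjusted p under 0.05. The 2 contrasts share no library, but the naming rules used the same rosiglitazone libraries that enter the interaction. Of the genes that the naming rules gave, 7 passed. Nptx1 had a log2 fold change of 6.23 with rosiglitazone and 0.81 ± 0.52 on diet, and Itgax of 3.16 and 0.19 ± 0.30. Pianp, Cyth4, Myo1f and Tcirg1 had diet values of 0.79, 0.49, 0.71 and 0.58, and Cerk of 0.15, each smaller than the values with rosiglitazone given above. Their interaction p-values ran from 0.0319 to 0.0493 after adjustment. All 7 are genes that rose in KO under the drug. They were named by their values in that contrast, so a large value there was favoured by the choice. Each of the 7 passed the interaction test in 2 or 3 of the 11 fits that left out 1 library.

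Cfd, Adipoq and Fasn did not pass. Cfd stood at -4.43 ± 0.53 on diet and at -6.17 with rosiglitazone (interaction -1.73, adjusted p = 0.349), and Adipoq at -2.76 ± 0.69 and -3.35 (interaction -0.59, adjusted p = 0.819). Fasn had fitted values of opposite signs, 1.90 ± 0.60 on diet, where it was not called, and -2.50 with rosiglitazone. Its interaction of -4.39 ± 0.83 did not pass (adjusted p = 0.0981). Mature adipocyte markers had a median of -2.02 on diet and -2.90 with rosiglitazone, PPARG targets of -1.04 and -2.07, and branched-chain amino acid genes of -0.91 and -1.84. Macrophage markers stood at 1.04 and 1.38 and complement genes at 0.83 and 0.75, so these 5 lists had the same sign in both settings. The oxidative phosphorylation median was 0.07 on diet and -1.11 with rosiglitazone, and the TCA cycle median 0.04 and -1.60. Medians of lists were not tested between the settings. Diet values rest on 2 KO libraries, and the contrast there called 37 genes (0.137%).

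**Figure D5:**
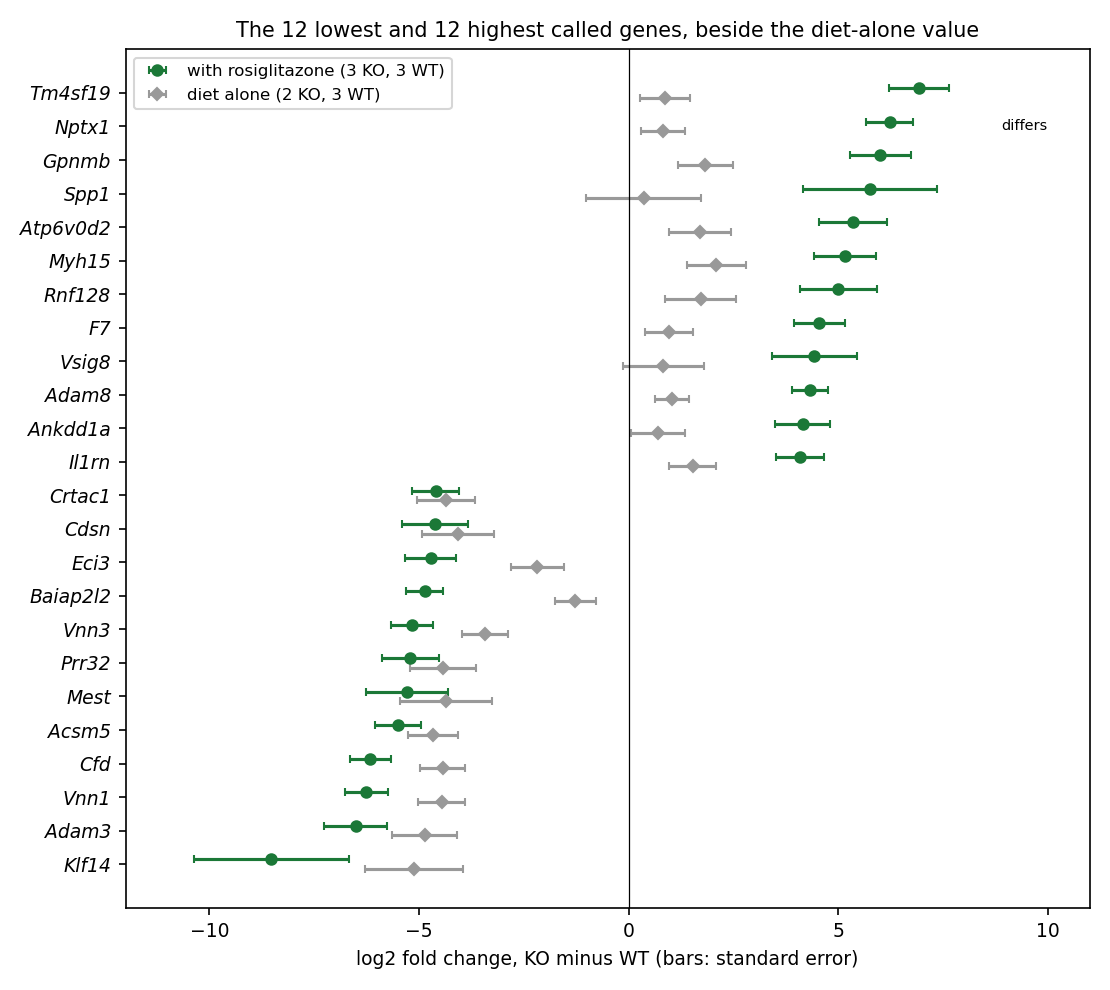
Log2 fold change, KO minus WT, of the 12 highest and 12 lowest called genes with rosiglitazone (green, 3 KO and 3 WT libraries) and on diet alone (grey, 2 KO and 3 WT), with standard errors. The fitted value of Klf14, at 0 reads in KO, depends on the prior count. Diet values run from 0.36 to 2.09 for the 12 highest and from -5.12 to -1.27 for the 12 lowest, and Nptx1 alone of the 24 is marked as differing by the interaction test.

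Because the WT titles contradict the treatment labels, the comparison was repeated with the 3 WT libraries whose title names rosiglitazone. That fit called 624 genes, 267 higher and 357 lower, of which 516 were among the 4037 and 512 of those had the same direction. Both contrasts use the same 3 KO libraries, so part of this overlap is built in. Mature adipocyte markers were lower in 12 of 24 cases there (median -2.31), lipid-associated macrophage genes higher in 8 of 20 (median 1.33), and oxidative phosphorylation genes had a median of 0.29 with 1 of 74 called, higher. By edgeR no TCA cycle gene was called lower under the titles, against 27 under the labels (median -0.02, 2 lower at an unadjusted p under 0.05). For fatty acid oxidation the number went from 19 to 0 (1 at an unadjusted p), for peroxisomal genes from 21 to 0 (12), for oxidative phosphorylation from 45 to 0 (0) and for NADPH supply from 7 to 0 (4). Of the 36 lists with members called lower under the labels, 16 had none under the titles, and of the 24 with members called higher, 17 had none. The median changed sign in 8 of 47 lists, oxidative phosphorylation, glycolysis, complement and brown and beige markers among them, and kept it for mature adipocyte and lipid-associated macrophage genes. The other tools were not run under the titles.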

How the data were processed

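RNA was extracted with Trizol and sequenced from Nextera XT libraries, per the labels' protocols, with strand not stated. The authors deposited, for each library, Salmon's estimated counts and TPM per transcript, per the file headers. The submitters' processing notes also name edgeR and GRCm38, and give no versions. Of 132288 transcripts 131892 (99.7%) matched GENCODE M21 by identifier and were summed to 52282 genes and rounded. edgeR 4.0.16 (R 4.3.3, quasi-likelihood test, robust, TMM, filterByExpr) was fitted to all 11 libraries with 1 mean per group and Benjamini-Hochberg adjustment at 0.05. Standard errors are the log2 fold change over the root of F. Alternatives used DESeq2 1.42.0 and limma 3.58.1. Named genes were a set of adipose and macrophage genes, the 12 highest and 12 lowest called genes of average log2 CPM of at least 1 without overlap, the 6 smallest p, up to 4 members of smallest p per list, and all called members of lists with at most 8. Members that did not pass stand in the counts, as do some members whose values are not reported here. The comparison, rules and 47 lists were chosen with earlier results of these data known. On simulated counts over 26184 genes, with the depths and spread of these libraries, 5.97% of 2-fold, 70.1% of 4-fold and 93.9% of 8-fold changes were recovered, with 6 false calls. The changed genes were few and drawn from well-covered ones. Differences in muscle, lymph node or ribosomal RNA content were not simulated, so these rates do not cover them or genes with few reads.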

Additional observations from a re-analysis of the deposited data

Results flagged for a closer look

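The KO minus WT difference with rosiglitazone differed from that on the diet alone for 7 of the genes that the naming rules gave, by the interaction term of edgeR's fit. The difference of the 2 log2 fold changes was 5.42 for Nptx1, 2.98 for Itgax, 2.97 for Pianp, 2.30 for Myo1f, 1.89 for Cyth4, 1.69 for Tcirg1 and 1.63 for Cerk, with adjusted p from 0.0319 to 0.0493. All KO libraries with the drug were above all WT libraries with it for these genes, which were named from that same contrast. Each passed in 2 or 3 of the 11 fits that left out 1 library, and the cause of that was not tested.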

How the results depend on the processing

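Called genes numbered 3396 to 4244 under RLE or upper-quartile scaling, other filters, length offsets, protein-coding genes alone or without ribosomal RNA genes. DESeq2 called 2408 higher (5949 in all), limma-voom 9182 (4010 higher, 5172 lower) and a fit of the 2 groups alone 8462 (3632 and 4830). The TPM fit gave 225 higher and 3853 lower, the muscle covariate 980 higher, the B cell covariate 2685 in all with 1382 lower, the mature adipocyte covariate 2419 with 654 lower, and WT titles 624 (267 and 357). Leaving out 1 library gave 1498 to 5919 calls, 529 to 2174 higher and 873 to 3745 lower. Without the 4 libraries richest in muscle reads, an alternative chosen after seeing the data like that without ribosomal RNA genes, edgeR called 0 genes (0 higher, 0 lower, 2538 at an unadjusted p under 0.05). The interaction gave 516 calls in DESeq2, 154 by titles and 1 to 348 with 1 library left out. The causes were not tested.

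The deviations of same-numbered libraries from their group means had correlations of 0.20, 0.16 and -0.10. With 3 libraries per group these values cannot decide whether the numbers pair the libraries. A replicate block gave 3444 calls, 1153 of them higher, 1 interaction call, and Ucp1 at -0.0849.

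Rptor passed, at -0.44 in DESeq2, -0.40 in limma-voom, -0.42 in the 2 groups alone and -0.44 without WT replicate 1 on diet, lay between -0.48 and -0.33 with 1 library left out, and by titles turned to 0.094, with a ratio of 1.07. On log2(TPM + 1) it was -0.99 without passing, and the ratio of TPM means was 0.495.

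Titles also reversed Clstn3 (0.29), Cox5b (0.30), H2-Aa (-0.042), H2-Eb1 (-0.026), Ndufv3 (0.047), Pex6 (0.47), Pfkp (-0.088), Ppara (0.32), Sptlc3 (3.96) and mt-Nd4l (0.24). TPM reversed Ucp1 (-0.63), which was not called and which lay between -1.10 and -0.11 without KO replicate 2 or WT replicate 1 or 3 and at -0.64 without the 4 muscle-rich libraries. The mature adipocyte covariate, which does not overlap between the genotypes, reversed Acads (0.26), Adipoq (0.17), Adra1a (1.71), Angptl4 (1.46), Arntl (-0.041), Blnk (-0.52), Bscl2 (0.50), Cd36 (2.24), Cd59a (0.39), Cd74 (-0.15), Cdh5 (0.73), Cebpa (0.059), Cidec (0.065), Cldn5 (0.34), Clstn3 (0.34), Cry2 (0.24), Cxcl9 (0.28), Degs2 (-1.41), Deptor (0.30), Eif4ebp1 (0.59), Fabp4 (0.46), Fasn (0.49), Fitm2 (0.47), G0s2 (1.01), G6pdx (1.23), Gpihbp1 (1.09), H2-DMa (-0.093), H6pd (0.67), Ifi27 (0.83), Il7r (-1.92), Kdr (0.44), Lep (2.12), Lpl (1.82), Map1lc3a (0.89), Me1 (0.29), Mlxipl (0.93), Mmrn2 (0.33), Mtor (0.84), Nadk (0.75), Optn (0.22), Orm1 (1.35), Pcx (0.0092), Pdhx (0.036), Per2 (0.31), Pfkl (0.87), Pgam1 (0.94), Plin1 (0.26), Ppara (0.12), Pparg (1.26), Ptpn1 (-0.18), Robo4 (0.17), Rora (0.88), Rpe (0.66), Serpina3c (0.84), Slc2a4 (1.11), Slc7a1 (-0.19), Srebf1 (0.41), Taldo1 (0.90), Thy1 (-1.81), Tkt (0.76), Ulk2 (0.52), mt-Cytb (0.72), mt-Nd4 (0.63), mt-Nd4l (0.28) and mt-Nd5 (0.71).

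Depth limits genes at a few reads, such as Klf14 and Adam3, to bounds or wide ratios.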

Other observations

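Among the 28 genes whose genotype difference changed with the drug, several outside the naming rule were chosen after their values were seen. Nat8l, which makes N-acetylaspartate in mitochondria of fat cells, measured 51.2, 58.7 and 41.6 CPM in KO and 221, 239 and 194 CPM in WT with rosiglitazone (log2 fold change -2.11 ± 0.26) and stood at 0.77 ± 0.27 on the diet alone (interaction -2.87, adjusted p = 0.0369, edgeR). Its fitted values thus had opposite signs in the 2 settings, but that on diet was not called (adjusted p = 0.345, edgeR). Gpr137b, a lysosomal membrane protein that acts on mTORC1 and Rag GTPases, measured 114, 124 and 127 and 39.5, 38.6 and 42.2 CPM (1.60 ± 0.14) and stood at 0.07 ± 0.15 on diet. Its close copy Gpr137b-ps was called too (interaction 1.40), and reads can be shared between them. Slc15a3, a lysosomal transporter of peptides and histidine in immune cells, was at 2.69 ± 0.21 with the drug and 0.34 ± 0.22 without it, and Cpe, a prohormone-processing carboxypeptidase, at 2.81 ± 0.25 and -0.25 ± 0.26. Nat8l, Gpr137b, Slc15a3 and Cpe passed the interaction test in 3 of the 11 fits that left out 1 library. The histone gene Hist1h2ap, one of a family of near-identical copies, passed it in 11 of 11, with 1.70 ± 0.24 under rosiglitazone and 0 reads in both KO libraries on diet, for which no fold is given because the fitted value depends on the prior count. Reads can be shared between its copies, so its values are uncertain.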
